A study of Mus musculus with 25 samples.

Results

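The genes for the cytosolic translation initiation factors of the mouse were followed from the egg to the late 2-cell embryo, with and without maternal Smarca4. They were taken by symbol: every symbol that starts with Eif and a digit from 1 to 6, leaving out the oocyte form Eif4e1b and the kinases named Eif2ak. The rule reads only the symbol and gave 50 genes of the 24412 symbols listed. Of the 50, 49 passed the filter for testing (an FPKM of 1 or more in 3 libraries or more). Only Eif2s3y, the Y-linked copy of an eIF2 subunit, did not.

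RNA was measured in 25 libraries from MII oocytes (3 WT and 2 KO), PN3 zygotes (pronuclear eggs, 4 of each genotype), early 2-cell embryos (E2C, 3 of each) and late 2-cell embryos (L2C, 3 of each). KO stands for Smarca4 knockout; Smarca4, also called Brg1, encodes the motor subunit of BAF complexes, which move nucleosomes. The eggs came from superovulated females aged 8 to 12 weeks, either B6D2F1 or C57BL/6 carrying Smarca4 flox/flox and Gdf9 Cre, a Cre driven by an oocyte promoter, and were used for sperm injection (ICSI). The labels name neither the strain behind each library nor the genotype of the sperm, which means that strain and genotype cannot be told apart. The number of eggs or embryos in a library and whether replicates came from separate females are likewise not stated, so p-values measure the spread between libraries, which may be technical.

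Initiation begins when eIF2, loaded with GTP, brings the initiator tRNA to the small ribosomal subunit, where eIF3 is the large scaffold and eIF1, eIF1A and eIF5 govern scanning and the choice of start codon. The mRNA is recruited through its cap by eIF4E, which binds the scaffold eIF4G. The scaffold in turn binds the helicase eIF4A, while the 4E-binding proteins block the contact of eIF4E with eIF4G. eIF2B reloads eIF2 with GTP and is the step at which the integrated stress response slows translation. Full-grown mouse oocytes do not transcribe and live on stored mRNA, and the main wave of embryonic transcription comes at the 2-cell stage.

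Promoter bases are shown for the genes that moved most between the early and late 2-cell stage in WT, since that step was the largest for these genes. The lines give the 3 rises (Eif3c, Eif3l and Eif3a) and then the 3 falls (Eif1ax, Eif4a1 and Eif4enif1) of largest size among called genes with at least 100 bases free of annotated exons within 250 bases before a RefSeq start. Eif1b and Eif2b1 fell further but had no such stretch, and Eif4e3 (-0.81) has no entry. Capitals mark the motifs searched on either strand: the ETS core CCGGAAG, the GC box GGGCGG, the CCAAT box, the E-box CACGTG, the cAMP response element and the YY1 core. Overlapping copies were counted each.
Eif3c: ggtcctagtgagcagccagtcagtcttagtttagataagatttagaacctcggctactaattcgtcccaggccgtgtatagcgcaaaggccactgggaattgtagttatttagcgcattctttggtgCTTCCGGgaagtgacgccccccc
Eif3l: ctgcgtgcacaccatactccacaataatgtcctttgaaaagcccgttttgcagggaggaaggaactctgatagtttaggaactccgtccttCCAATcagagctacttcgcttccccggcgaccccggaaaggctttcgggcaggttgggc
Eif3a: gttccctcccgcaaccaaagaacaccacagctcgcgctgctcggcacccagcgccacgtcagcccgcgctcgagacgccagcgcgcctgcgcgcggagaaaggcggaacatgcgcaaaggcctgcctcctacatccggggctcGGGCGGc
Eif1ax: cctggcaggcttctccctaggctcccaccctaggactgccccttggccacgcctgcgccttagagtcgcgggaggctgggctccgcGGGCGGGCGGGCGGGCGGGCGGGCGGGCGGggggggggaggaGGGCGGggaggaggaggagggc
Eif4a1: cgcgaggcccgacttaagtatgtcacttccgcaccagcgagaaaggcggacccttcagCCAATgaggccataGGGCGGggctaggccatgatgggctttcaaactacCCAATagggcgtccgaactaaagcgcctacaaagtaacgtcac
Eif4enif1: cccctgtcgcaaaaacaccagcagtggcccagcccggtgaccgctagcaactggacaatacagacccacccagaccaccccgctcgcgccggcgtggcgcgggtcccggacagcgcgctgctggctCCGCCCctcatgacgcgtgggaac
The sequences are RefSeq's, on GRCm38.p6, and each is 150 bases long. Eif3c lies at chr7:126566412-126566561 on the minus strand and Eif3l at chr15:79075029-79075178 on the plus strand, each ending 46 and 45 bases before the RefSeq start, where GENCODE vM21 begins the gene. Eif3a lies at chr19:60790694-60790843 on the minus strand, Eif1ax at chrX:159372028-159372177 on the plus strand, Eif4a1 at chr11:69672424-69672573 on the minus strand and Eif4enif1 at chr11:3202203-3202352 on the plus strand, each directly before a RefSeq start. Eif4enif1 has 4 RefSeq starts, and only the stretch before the first listed is shown. The GC share was 50.7% for Eif3c, 54.00% for Eif3l, 70.7% for Eif3a, 79.3% for Eif1ax, 56.7% for Eif4a1 and 70.00% for Eif4enif1. Eif1ax held 8 GC boxes, most of them overlapping in a run, and the stretch shown for Eif3c held 1 ETS core and no GC box.

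Of the 50 genes, 39 had a RefSeq promoter entry, and the motifs were counted in the 150 bases before each start. For Eif3c and Eif3l these windows end nearer the start than the stretches shown above. The ETS core counted for Eif3l lies outside its stretch. The ETS core stood in 10 of the 39 (Eif1b, Eif3c, Eif3d, Eif3g, Eif3l, Eif3m, Eif4e2, Eif4ebp2, Eif5a and Eif5a2), against 13.4% of the 9049 tested genes with an entry. The GC box stood in 26, against 56.8%, the CCAAT box in 10, against 32.7%, and the E-box in 8, against 7.6%. No member held the cAMP element (2.84% of tested genes) or the YY1 core (0.32%). A start with C followed by 4 pyrimidines, the form of the TOP motif of many ribosomal protein mRNAs, was found for Eif2s3x and Eif3f, against 3.12% of tested genes. These are matches of letters and no measure of binding.

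The sum of FPKM was 216308 to 252440 per library. WT E2C replicate 2 listed 9345 genes above 0, fewer than the 13585 to 16698 elsewhere, and 6 of the 50 genes were among those at 0 there (Eif1a, Eif2s3y, Eif3j1, Eif3l, Eif4ebp1 and Eif5a2). The files hold no counts, so depth is unknown and no counting interval could be given. Smarca4, the deleted gene, stood at 25.97 to 30.5 in WT and 0.219 to 0.221 in KO oocytes, 29.6 to 33.2 and 0.222 to 0.448 in zygotes, 18.98 to 34.9 and 0.767 to 5.12 in early and 48.5 to 90.4 and 21.03 to 22.5 in late 2-cell embryos (scaled FPKM). It was far lower in KO at MII (-4.57 ± 0.09 (SE) on the log2 scale, limma adjusted p = 3.9e-21) and PN3 (-4.61), and less so at E2C (-3.19) and L2C (-1.60, adjusted p = 0.021). The 8 oocyte markers summed to 2564 to 2934 scaled FPKM at MII, 1490 to 1936 at PN3 and 1039 to 1515 at E2C. Their sum at L2C was 324 to 817 in WT and 694 to 935 in KO. Cumulus and granulosa markers summed to at most 19.6, blood markers to at most 1.48, and sperm and testis markers to at most 20.3 (a KO E2C library). The median SD between replicates on the log2 scale was 0.0773 in oocytes, 0.128 in zygotes, 0.352 in early and 0.322 in late 2-cell embryos, so small differences could be seen in eggs and zygotes and not in 2-cell embryos.

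**Figure D1:**
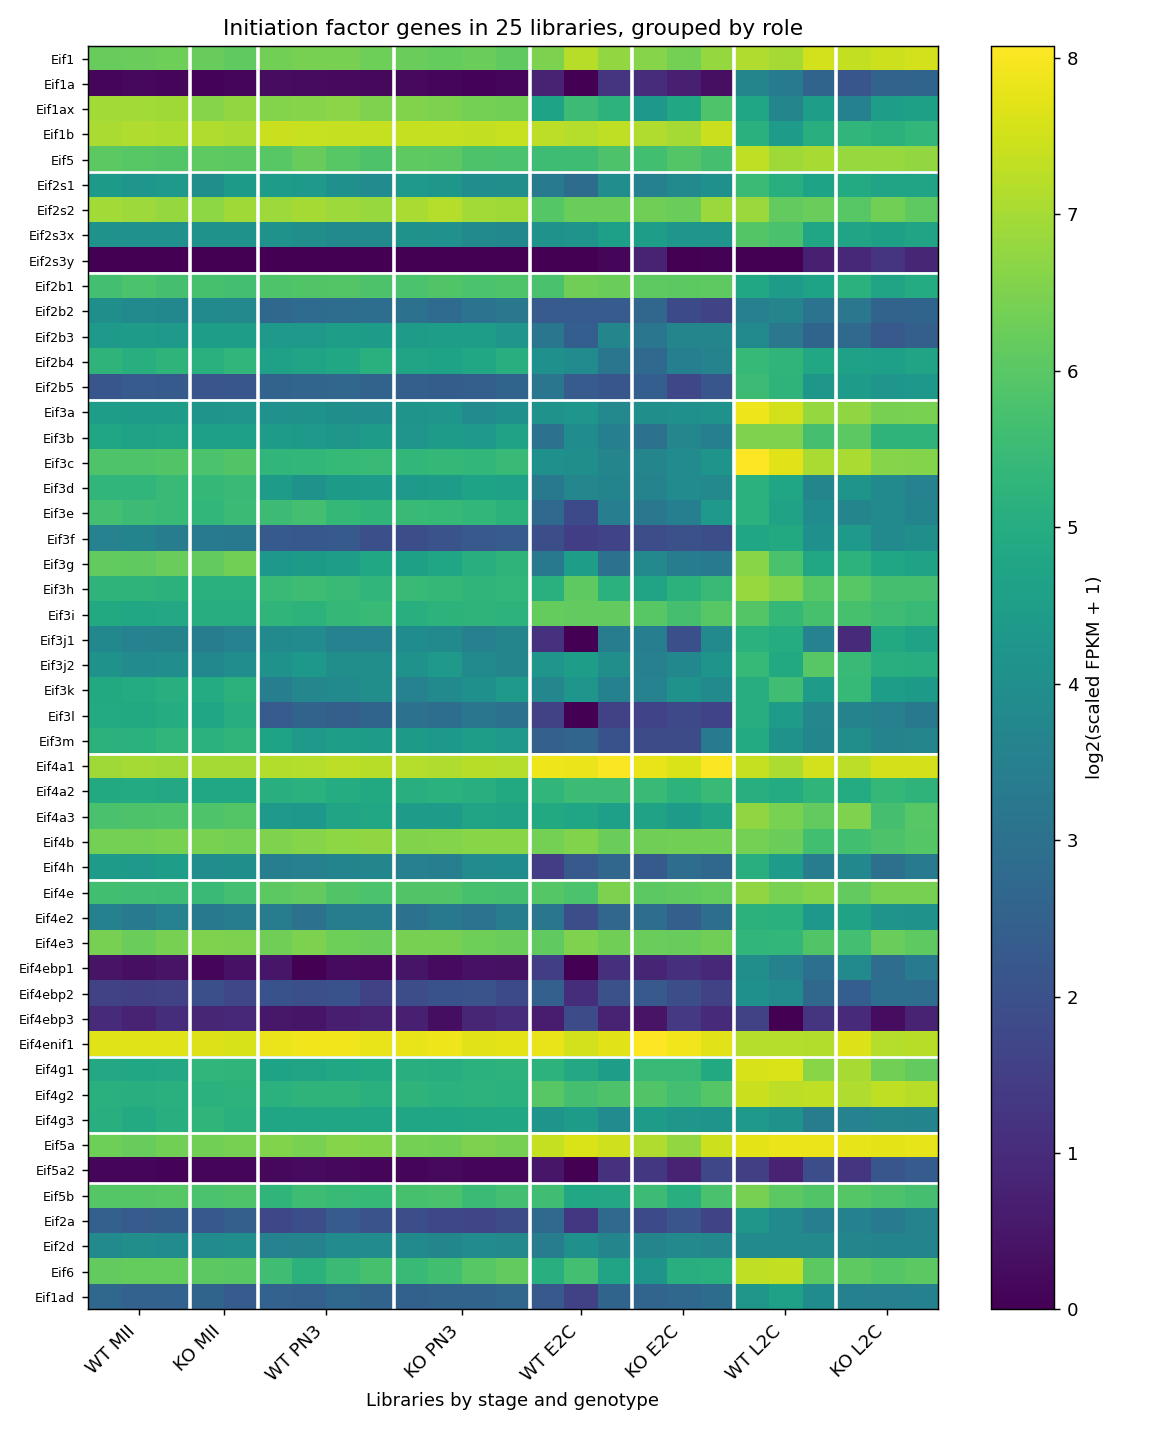
Level of each of the 50 genes (rows, by role, white lines between roles) in each of the 25 libraries (columns, by stage and genotype, white lines between groups), as log2(scaled FPKM + 1) on the colour scale. The column blocks of the late 2-cell stage stand apart from the others in the eIF3 and eIF4G rows, and Eif2s3y is dark in nearly all libraries.

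In WT MII oocytes the initiation factor genes ran from under 1 to over 200 in level (scaled FPKM, a measure per transcript length, so genes can be compared). Among the genes for start codon selection, Eif1b stood at 135 ± 2.82 (SD, n = 3) and Eif1, its close paralog, at 74.6 ± 2.43 (SD, n = 3). Eif1ax, the X-linked eIF1A gene, stood at 122 ± 0.92 (SD, n = 3), and Eif1a, its autosomal paralog, at only 0.101 ± 0.017 (SD, n = 3). Eif5, the GTPase activator of eIF2, stood at 61.9 ± 2.48 (SD, n = 3). Of the eIF2 subunits, Eif2s2 (beta) was highest with 117, above Eif2s1 (alpha) with 19.3 and Eif2s3x (gamma) with 16.1. Among the 5 eIF2B genes, which encode the exchange factor of eIF2, the levels were 51.5 for Eif2b1, 35.9 for Eif2b4, 19.99 for Eif2b3, 13.7 for Eif2b2 and 3.77 for Eif2b5, the catalytic subunit.

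The 12 core subunits of eIF3 in WT MII oocytes ran from 10.7 for Eif3f to 70.2 for Eif3g. Between them lay Eif3a with 21.1, Eif3b with 25.3, Eif3i with 27.95, Eif3l with 29.7, Eif3k with 30.7, Eif3m with 36.5, Eif3h with 36.8, Eif3d with 39.98, Eif3e with 45.9 and Eif3c with 56.9. The loosely bound subunit eIF3j has a pair of genes, Eif3j1 (11.6) and Eif3j2 (14.9). Of the Eif3j2 transcript's 50-base words, 90.8% also occur in Eif3j1, so the split of reads between them is uncertain. Further members share 50-base words with other genes and may take reads from them. The shares were 65.3% for Eif4a1 (mostly with a pseudogene), 65.5% for Eif4ebp3 (with AC115631.1), 37.3% for Eif3m and 36.2% for Eif2s3x. For Eif1 the share was 31.6%, the largest part (15.9%) with Emd. It was 27.8% for Eif2s2, 26.2% for Eif3h, 24.4% for Eif4a3 and 22.03% for Eif3e. The next lower share was that of Eif4e3 (12.7%). Exons of Eif4e3 and Eif4ebp3 overlap another gene on the same strand (Gm20696 and AC115631.1). Exons of Eif1ad, Eif2a, Eif2b4, Eif2d, Eif3j1, Eif3m, Eif4a2 and Eif5b overlap a protein-coding gene on the other strand (Banf1, Serp1, Snx17, Rassf5, Spg11, Ccdc73, Rfc4 and Rev1 in that order), and the use of strand in counting is not stated.

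Within the cap-binding machinery, the highest member in WT MII oocytes was Eif4enif1, which encodes the eIF4E transporter 4E-T, with 203 ± 0.44 (SD, n = 3). Eif4e, the cap-binding protein, stood at 47.7, its paralogs Eif4e3 at 81.96 and Eif4e2 at 10.2. The genes for the 4E-binding proteins were low: 1.96 for Eif4ebp2, 0.945 for Eif4ebp3 and 0.322 for Eif4ebp1. The helicase gene Eif4a1 stood at 123, its paralog Eif4a2 at 29.1, and Eif4a3, which encodes an exon junction complex protein, at 55.1. The helicase cofactors Eif4b and Eif4h stood at 83.8 and 20.8. The scaffold genes Eif4g1, Eif4g2 and Eif4g3 lay close together, at 28.1, 33.3 and 31.3.

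The remaining factors in WT MII oocytes were Eif5a, the hypusine-carrying elongation and termination factor, with 77.03 and its paralog Eif5a2 with 0.0673. Eif5b, the GTPase of subunit joining, stood at 61.4 and Eif6, which keeps the large ribosomal subunit from joining early, at 70.2. Eif2d stood at 14.2, Eif2a at 4.26 and Eif1ad, a nuclear protein with an eIF1A-like domain, at 5.02.

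From MII to PN3 in WT, transcripts of several eIF3 subunits fell while a smaller group of factors rose slightly. Of 49 members, 12 were called higher and 20 lower, a share to be read against 45.2% of all 12079 genes called in this step (19.2% higher and 26.1% lower). The members' median difference was -0.08 against 0.00 for all genes (log2 of scaled FPKM + 1, a scale that understates changes of low genes). The unit is relative within each library, so a change in a gene's own RNA and a change in the rest of the RNA cannot be told apart. Eif3l fell most: it stood at 29.4, 28.9 and 30.7 in the WT MII libraries and at 3.99, 4.88, 4.47 and 5.02 in the WT PN3 libraries. The groups did not overlap, and the difference was -2.46 ± 0.10 (SE) with an adjusted p of 6.7e-15 (limma, Benjamini-Hochberg over all genes, as for every adjusted p here). Eif3g went from 69.3, 67.1 and 74.1 to 18.9, 19.9, 22.3 and 26.8 (-1.64 ± 0.13 (SE), adjusted p = 3.0e-10). Every WT PN3 library lay below every WT MII library for Eif3g as for Eif3l.

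Of the 14 eIF3 genes, 9 fell from MII to PN3 in WT, 2 rose and 3 were not called. Besides Eif3l and Eif3g the falls included Eif3f (-1.35 ± 0.09 (SE)), Eif3k (-1.23 ± 0.12 (SE)), Eif3d (-0.998 ± 0.09 (SE)) and Eif3m (-0.73 ± 0.09 (SE)). Eif3i, a WD-repeat subunit, rose instead, from 28.7, 27.01 and 28.2 to 37.8, 36.05, 40.4 and 42.9 (0.47 ± 0.05 (SE), adjusted p = 7.1e-08). The falls were thus not shared by the whole complex. Outside eIF3, Eif4a3 (-1.25 ± 0.09 (SE)), Eif2b2 (-1.04 ± 0.09 (SE)), Eif4h (-0.86 ± 0.11 (SE)), Eif6 (-0.65 ± 0.12 (SE)), Eif5b (-0.53 ± 0.07 (SE)), Eif1ax (-0.35) and Eif4g3 (-0.25) fell. Rises were small: Eif4e (0.36 ± 0.07 (SE)), Eif2b5 (0.36 ± 0.08 (SE)), Eif5a (0.25) and Eif4a1 (0.25). With 1 spread shared by all libraries, 9 members kept a call in this step: Eif3l, Eif3g, Eif3f, Eif4a3, Eif3k, Eif2b2, Eif3d, Eif5b and Eif3i.

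In KO the same step called 11 members higher and 13 lower, against 40.8% of all genes (17.6% higher and 23.2% lower). Eif3l fell by less in KO, from 25.7 and 31.8 to 7.11, 6.59, 7.95 and 7.10 (-1.85 ± 0.11 (SE)), Eif3g changed by -1.33 ± 0.14 (SE) and Eif4a3 by -1.31 ± 0.09 (SE). The test of the difference between the steps called 3 members, against 2.29% of all genes (1.39% higher and 0.902% lower): Eif3l (0.61 ± 0.15 (SE), adjusted p = 0.034), Eif5b (0.37 ± 0.10 (SE), adjusted p = 0.039) and Eif3i (-0.31 ± 0.08 (SE), adjusted p = 0.032). Eif3l and Eif5b fell by less in KO, and Eif3i rose by less. All 3 lost the call when the 4 groups were fitted alone (adjusted p = 0.085 for Eif3l, 0.19 for Eif5b and 0.21 for Eif3i), and all 3 lost it without WT MII replicate 2, WT MII replicate 3, KO MII replicate 1, WT PN3 replicate 3 or KO PN3 replicate 1 (adjusted p of at most 0.14 over these). Eif3l and Eif5b also lost it without WT MII replicate 1 or WT PN3 replicate 1, Eif5b and Eif3i without WT PN3 replicate 4 or KO PN3 replicate 2, Eif3l without KO PN3 replicate 3 and Eif5b without KO PN3 replicate 4.

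From PN3 to early 2-cell in WT, further factor transcripts fell and a set of abundant ones rose. Of 49 members, 6 were called higher and 13 lower, against 31% of all genes (12.9% higher and 18.1% lower), with a median of -0.14 against -0.05. On FPKM as deposited the split was 4 higher and 24 lower, with an all-gene median of -0.20, and on TPM it was 4 and 16. The share of all genes called under these settings is not given, so these splits show only how the member calls moved. Eif3e, which held its level from MII to PN3 (-0.08, not called), was the largest fall: 45.04, 49.9, 40.5 and 38.3 in WT PN3 and 5.80, 2.54 and 9.92 in WT E2C. The groups did not overlap, and the difference was -2.79 ± 0.29 (SE) with an adjusted p of 1.8e-07. Eif3m (-2.11 ± 0.26 (SE)), Eif3c (-1.48 ± 0.17 (SE)) and Eif3l (-1.43 ± 0.29 (SE)) fell as well. Eif3j1 was called at -2.21 ± 0.64 (SE), with E2C values of 1.23, 0 and 9.60, and lost the call without WT E2C replicate 1 (adjusted p = 0.065) or without WT E2C replicate 2, where it is listed at 0 (adjusted p = 0.092).

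Other falls from PN3 to early 2-cell in WT were Eif1ax (-1.44 ± 0.26 (SE)), Eif4h (-1.44 ± 0.31 (SE)), Eif2b3 (-1.33 ± 0.24 (SE)), Eif2b4 (-1.11 ± 0.27 (SE)) and Eif2s2 (-0.75 ± 0.20 (SE)). Eif2b4 lost the call without WT E2C replicate 3 (-0.83, adjusted p = 0.053) and Eif2s2 without WT E2C replicate 1 (adjusted p = 0.06). The 6 rises were Eif5a, from 93.01, 86.4, 95.8 and 91.7 to 165, 195 and 179 (0.96 ± 0.14 (SE)), Eif3i, from 37.8, 36.05, 40.4 and 42.9 to 70.3, 70.02 and 69.1 (0.82 ± 0.15 (SE)), Eif4a1 (0.72 ± 0.12 (SE)), Eif4g2 (0.63 ± 0.12 (SE)), Eif1 (0.45 ± 0.15 (SE)) and Eif4a2 (0.42 ± 0.15 (SE)). Eif4g2 encodes DAP5, an eIF4G relative that does not bind eIF4E. The calls of Eif1 and Eif4a2 were lost on FPKM as deposited and on TPM, without WT E2C replicate 2 or WT E2C replicate 3, and for Eif4a2 also without WT E2C replicate 1, WT PN3 replicate 3 or WT PN3 replicate 4 (for Eif1 0.25, adjusted p = 0.2, and 0.48, adjusted p = 0.062).

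At early 2-cell the core eIF3 genes were therefore far apart in WT: Eif3l stood at 1.33 ± 1.15 (SD, n = 3) and Eif3i at 69.8 ± 0.64 (SD, n = 3). In KO the step called 5 members higher and 14 lower, against 21.1% of all genes (8.87% higher and 12.2% lower). The falls included Eif3m (-2.04 ± 0.26 (SE)), Eif3e (-1.65 ± 0.29 (SE)), Eif2b4 (-1.55 ± 0.27 (SE)), Eif3c (-1.47 ± 0.17 (SE)) and Eif1ax (-1.44 ± 0.26 (SE)). Eif3g (-1.41 ± 0.36 (SE)), Eif3l (-1.35 ± 0.29 (SE)), Eif4h (-1.06 ± 0.31 (SE)), Eif6 (-1.005 ± 0.32 (SE)), Eif3b (-0.99 ± 0.23 (SE)) and Eif2b2 (-0.99 ± 0.24 (SE)) fell too. The rises in KO were Eif5a2 (1.15 ± 0.25 (SE)), Eif5a (0.70), Eif3i (0.68), Eif4a1 (0.66) and Eif4g2 (0.64). Without KO E2C replicate 1, 11 members were called in KO, and 12 without both E2C libraries numbered 3, which held the most 45S ribosomal RNA (Rn45s, 7357 and 10915 FPKM against 812 to 2595 in the other E2C libraries). No share of all genes is given beside these counts. The difference between the WT and KO steps called 0 members with limma (0% of all genes). At an unadjusted p under 0.05 stood 2 of 49 members, against 5.32% of all genes. The smallest p-values belonged to Eif3e (1.14 ± 0.41 (SE), adjusted p = 0.88), Eif5a2 (0.77) and Eif1ad (0.57).

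From early to late 2-cell in WT, the initiation factor genes rose together with much of the transcriptome, led by eIF3. Of 49 members, 32 were called higher and 7 lower, against 52.4% of all genes called (34.1% higher and 18.3% lower). The members' median difference was 1.20 against 0.25 for all genes. Eif3c, a scaffold subunit of eIF3, stood at 15.6, 15.3 and 11.7 in WT E2C and at 269, 211 and 131 in WT L2C. The difference was 3.70 ± 0.22 (SE) with an adjusted p of 2.3e-11, and the lowest late library lay far above the highest early one. Eif3a, the largest subunit, rose from 16.7, 18.02 and 13.05 to 235, 184 and 110.5 (3.34 ± 0.25 (SE), adjusted p = 3.7e-10). Eif3l rose from 2.02, 0 and 1.96 to 31.7, 21.3 and 12.5 (3.37 ± 0.37 (SE), adjusted p = 1.1e-07). For these subunits every late library was above every early one, and the third late WT library was the lowest.

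Of the 14 eIF3 genes, 13 rose from early to late 2-cell in WT and 1, Eif3i, fell. The rises included Eif3j1 (3.06 ± 0.83 (SE)), Eif3f (2.90 ± 0.32 (SE)) and Eif3b (2.76 ± 0.30 (SE)). Eif3i went from 70.3, 70.02 and 69.1 to 59.4, 40.4 and 51.4 (-0.48 ± 0.19 (SE), adjusted p = 0.037). This call was lost without WT E2C replicate 1 (adjusted p = 0.075), WT E2C replicate 3 (0.072) or WT L2C replicate 2 (-0.33 on the log2 scale, adjusted p = 0.19). At late 2-cell the core subunits in WT ran from 19.4 ± 9.22 (SD, n = 3) for Eif3m to 204 ± 69.3 (SD, n = 3) for Eif3c.

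In the cap-binding group, the scaffold gene Eif4g1 rose from 36.5, 28.03 and 22.1 to 193, 194 and 98.3 in WT. The groups did not overlap, and the difference was 2.41 ± 0.27 (SE) (adjusted p = 1.4e-07). Eif4g2 rose by 1.51 ± 0.15 (SE), while Eif4g3 was not called (-0.22 ± 0.22 (SE)). Eif4ebp1, a 4E-binding protein under mTOR control, rose from 1.81, 0 and 1.16 to 14.96, 10.6 and 6.68 (2.62 ± 0.40 (SE), adjusted p = 8.1e-06). Eif4e2, also called 4EHP, a cap-binding protein that does not bind eIF4G, rose by 2.28 ± 0.37 (SE) and the helicase cofactor Eif4h by 2.15 ± 0.40 (SE). Falls in this group were Eif4e3 (-0.81 ± 0.23 (SE)), Eif4a1 (-0.58 ± 0.16 (SE)) and Eif4enif1 (-0.53 ± 0.16 (SE)). Eif4e itself was not called (0.52 ± 0.24 (SE), adjusted p = 0.076).

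Among the remaining roles at this step in WT, Eif2b5, the catalytic eIF2B subunit, rose from 8.00, 3.94 and 3.46 to 45.8, 37.5 and 18.5 (2.49 ± 0.30 (SE), adjusted p = 4.2e-07). Eif2b1 went the other way, from 53.6, 79.2 and 76.2 to 26.98, 20.9 and 24.98 (-1.47 ± 0.18 (SE), adjusted p = 4.2e-07). Subunits of eIF2B thus moved in opposite directions. Eif2s1 rose by 1.70 ± 0.41 (SE), Eif1ad by 2.13 ± 0.28 (SE), and Eif5a2 by 0.87 ± 0.32 (SE). The Eif5a2 call was lost without WT E2C replicate 1 (adjusted p = 0.06), WT E2C replicate 2 (0.12), WT L2C replicate 1 (0.068) or WT L2C replicate 3 (0.12). The largest fall of all was that of Eif1b (-2.37 ± 0.17 (SE)). The falls of Eif4e3, Eif4a1, Eif4enif1 and Eif1ax were singled out after their values were seen.

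**Figure D2:**
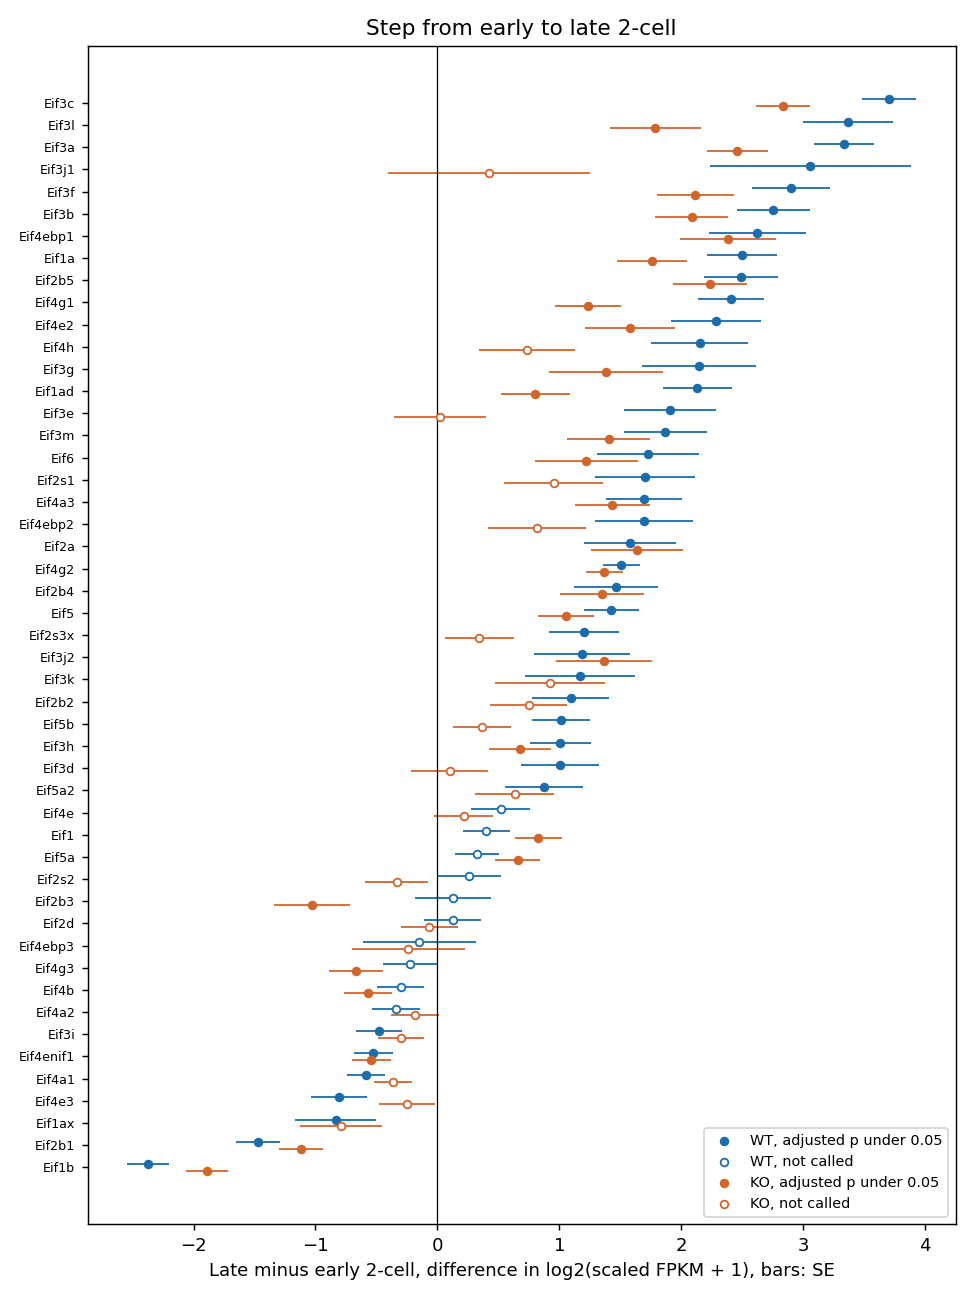
Difference between late and early 2-cell embryos for the 49 tested genes (one row each, ordered by WT), in log2(scaled FPKM + 1), with the standard error of the limma fit as bars, for WT (blue) and KO (orange). Filled points have an adjusted p under 0.05. Most WT points lie right of 0, up to 3.70 for Eif3c, Eif1b lies at -2.37, and for the largest rises the KO point lies left of the WT point.

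In KO the step from early to late 2-cell called 23 members higher and 6 lower, against 40.8% of all genes (26.8% higher and 14% lower), with a median of 0.75 against 0.15. Eif3c (2.83 ± 0.22 (SE)), Eif3a (2.46 ± 0.25 (SE)), Eif4ebp1 (2.38 ± 0.40 (SE)), Eif2b5 (2.24 ± 0.30 (SE)), Eif3f (2.12 ± 0.32 (SE)), Eif3b (2.08 ± 0.30 (SE)), Eif3l (1.79 ± 0.37 (SE)), Eif1a (1.76 ± 0.29 (SE)) and Eif2a (1.64 ± 0.38 (SE)) led the rises. Of the eIF3 genes, 9 of 14 were called higher in KO and none lower. Eif3e, which rose by 1.91 ± 0.38 (SE) in WT, stood at 0.02 ± 0.38 (SE) in KO (not called). The falls in KO were led by Eif1b (-1.89 ± 0.17 (SE)), Eif2b1 (-1.12 ± 0.18 (SE)) and Eif2b3 (-1.03 ± 0.31 (SE)). Eif2b3 lost the call without KO E2C replicate 2 (adjusted p = 0.058) or KO L2C replicate 2 (0.056). The test of the difference between the WT and KO steps called 0 members with limma (0.00828% of all genes). At an unadjusted p under 0.05 stood 10 of 49 members, against 11.4% of all genes. The smallest p-values belonged to Eif3e (-1.89 ± 0.53 (SE), adjusted p = 0.26), Eif1ad (-1.33 ± 0.40 (SE), 0.26) and Eif4g1 (-1.18 ± 0.38 (SE), 0.29).

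Some paralogs changed places between egg and late 2-cell embryo. Eif1b exceeded Eif1 in MII oocytes and zygotes, and the order was the reverse at late 2-cell. Eif1b stood at 154, 145 and 157 in WT E2C and at 34.2, 20.8 and 32.6 in WT L2C (-2.37 ± 0.17 (SE), adjusted p = 2.7e-10). Eif1 stood at 88.04, 147 and 107 and then at 138, 127 and 184 (0.40 ± 0.20 (SE), not called). The log2 ratio of Eif1 to Eif1b, each with 1 added, was -0.85 ± 0.04 (SD, n = 3) in WT MII, -1.03 ± 0.06 (n = 4) in PN3, -0.44 ± 0.42 (n = 3) in E2C and 2.33 ± 0.31 (n = 3) in L2C. Every late 2-cell library had more Eif1 than Eif1b. In KO the late ratio was 2.14 ± 0.13 (n = 3), so the order was the same in both genotypes.

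The eIF1A pair changed in the same sense without crossing. Eif1ax stood at 123, 122 and 121 in WT MII oocytes, 24.8, 45.3 and 36.5 in E2C and 26.2, 11.9 and 21.4 in L2C. Its last step (-0.83 ± 0.33 (SE), adjusted p = 0.04) lost its call without WT E2C replicate 2 (-0.64, adjusted p = 0.14), WT E2C replicate 3 (adjusted p = 0.095) or WT L2C replicate 2 (-0.52, adjusted p = 0.23). Eif1a stood at 0.0993, 0.119 and 0.0844 in MII oocytes, 0.760, 0 and 1.39 in E2C and 11.7, 8.92 and 5.03 in L2C (2.50 ± 0.29 (SE) for the last step, adjusted p = 2.0e-07). The log2 ratio of Eif1a to Eif1ax went from -6.80 in MII oocytes to -4.46 in E2C and -1.12 ± 0.76 (SD, n = 3) in L2C, so Eif1ax remained above Eif1a in each WT library.

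Among the eIF4G genes, Eif4g1 and Eif4g3 had a log2 ratio of -0.15 ± 0.07 (SD, n = 3) in WT MII, 0.02 ± 0.11 (n = 4) in PN3, 0.70 ± 0.32 (n = 3) in E2C and 3.33 ± 0.14 (n = 3) in L2C. In L2C Eif4g1 stood at 193, 194 and 98.3 and Eif4g3 at 19.4, 16.3 and 9.48. The Eif4e to Eif4e2 ratio moved the other way at the last step, from 3.48 to 1.71. For 9 paralog pairs and 3 steps in WT, 27 exact two-sided permutation tests were made, whose smallest possible p is 0.0571 for 3 against 4 libraries and 0.1 for 3 against 3. None could pass 0.05, and the smallest adjusted p was 0.147. Eif4a1 stayed above Eif4a2 and Eif5a above Eif5a2 in every group by mean log2 ratios of at least 2.04 and 5.83.

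**Figure D3:**
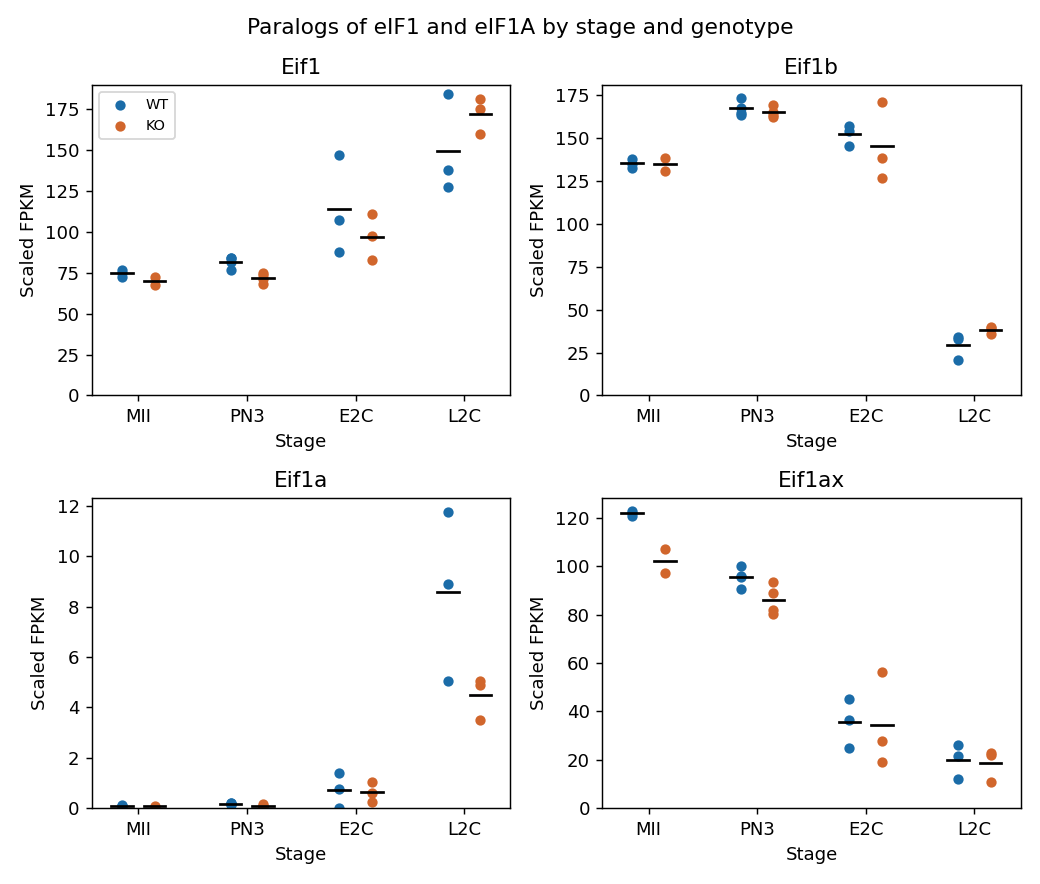
Scaled FPKM of Eif1, Eif1b, Eif1a and Eif1ax in each library by stage, WT in blue and KO in orange, with a bar at each group mean. Eif1b drops from 152 to 29.2 between early and late 2-cell in WT, where Eif1 stands at 149.8.

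Eif2s3y can come only from embryos that carry a Y chromosome. It was listed at 0 in every MII and PN3 library, at 0, 0 and 0.0823 in WT E2C, 0.766, 0 and 0.0291 in KO E2C, 0, 0 and 0.620 in WT L2C and 0.903, 1.39 and 0.810 in KO L2C. All KO L2C libraries and only the third WT L2C library were above 0 at that stage. Eif2s3x, its X-linked partner, stood at 59.9, 53.3 and 26.4 in WT L2C and 25.04, 23.2 and 25.4 in KO L2C. How many embryos a library holds, and of which sex, is not stated.

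In MII oocytes, 5 members differed between KO and WT, 3 higher and 2 lower in KO, against 13% of all genes (5.99% higher and 6.99% lower). Eif4g1, the main eIF4G scaffold, was higher in KO: 28.2, 27.95 and 28.2 in the WT libraries and 39.3 and 38.2 in the KO libraries. The groups were far apart for their spread, with a difference of 0.45 ± 0.07 (SE) and an adjusted p of 0.00016. Eif4h was lower in KO, with 21.00, 19.6 and 21.7 in WT and 14.7 and 15.2 in KO (-0.45 ± 0.10 (SE), adjusted p = 0.0053). Eif3a was lower, with 21.7, 20.4 and 21.3 in WT and 17.2 and 17.6 in KO (-0.26 ± 0.07 (SE), adjusted p = 0.0091). Eif4g3 (0.20 ± 0.06 (SE), adjusted p = 0.029) and Eif3i (0.18 ± 0.05 (SE), adjusted p = 0.019) were slightly higher. With WT and KO MII libraries fitted alone, which called 3.51% of all genes, Eif4g1 (adjusted p = 0.015) and Eif4h (0.028) kept their calls and the other 3 did not (Eif3a 0.051, Eif3i 0.099, Eif4g3 0.15).

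Leaving out 1 MII library kept the calls of Eif4g1 and Eif4h in all 5 cases, and 8 members were called without KO MII replicate 2. Eif3a lost its call without WT MII replicate 1 (adjusted p = 0.051). Eif3i and Eif4g3 lost theirs without WT MII replicate 2 (0.12 and 0.19), WT MII replicate 3 (0.056 and 0.056) or KO MII replicate 1 (0.077 and 0.25). On FPKM as deposited, the split was 1 higher and 5 lower, and Eif3i (0.1) and Eif4g3 (0.12) lost their calls. No share of all genes is given beside this split or the count of 8 members. With 1 spread shared by all stages no member was called at MII (0% of all genes higher and 0.00828% lower), Eif4g1 included. The KO and WT groups did not overlap for 12 members higher and 13 lower in KO, against 19.6% and 20.8% of all genes. The oocyte markers summed to 2564 to 2645 in WT and 2849 to 2934 in KO, and their part in these differences was not tested.

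**Figure D4:**
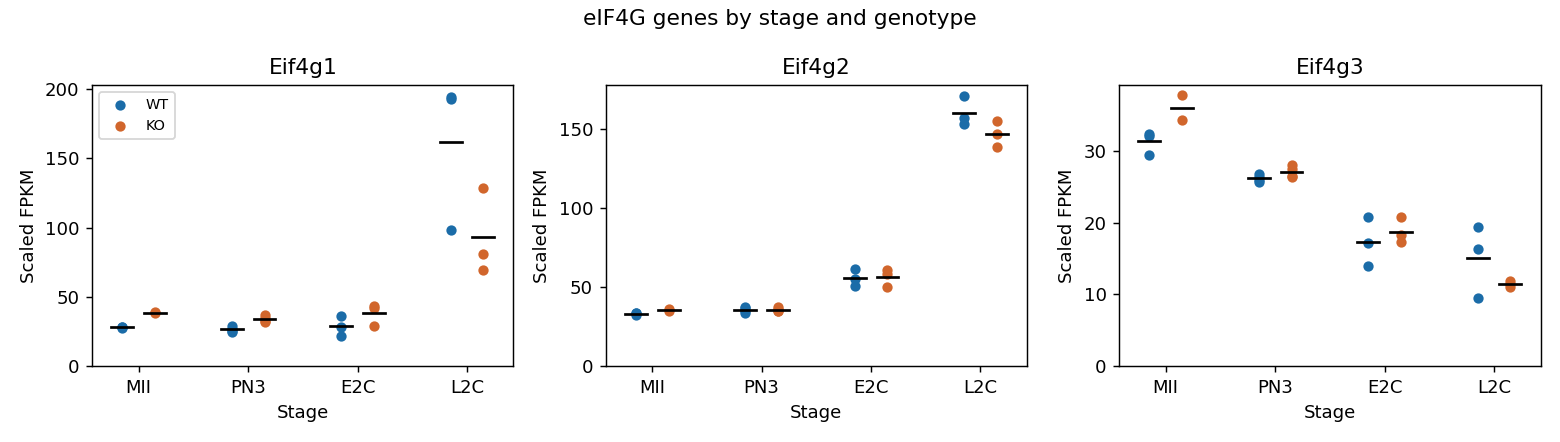
Scaled FPKM of Eif4g1, Eif4g2 and Eif4g3 in each library by stage, WT in blue and KO in orange, with a bar at each group mean. The KO points of Eif4g1 lie above all WT points at MII and PN3, and at L2C the WT mean (162) lies above the KO mean (93.2).

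In PN3 zygotes, 2 members were called, both higher in KO, against 3.05% of all genes (1.78% higher and 1.27% lower). Eif3l stood at 3.99, 4.88, 4.47 and 5.02 in WT and 7.11, 6.59, 7.95 and 7.10 in KO. Every KO library was above every WT library, with a difference of 0.55 ± 0.12 (SE) and an adjusted p of 0.0078. Eif4g1 was again higher in KO, with 24.7, 25.6, 27.02 and 29.2 in WT and 32.3, 31.7, 34.6 and 36.7 in KO (0.33 ± 0.08 (SE), adjusted p = 0.028). Fitted alone, the PN3 groups kept the call of Eif3l (adjusted p = 0.023) and lost that of Eif4g1 (0.067), against 0.778% of all genes. Eif4g1 also lost it without WT PN3 replicate 1 (0.094), 2 (0.069) or 3 (0.071) and without KO PN3 replicate 3 (0.099) or 4 (0.094). With 1 spread for all stages neither was called (0.0331% of all genes higher). With a pseudocount of 0.1 Eif3l lost its call (adjusted p = 0.11). Next by p-value, and not called, were Eif5b (0.23 ± 0.07 (SE), adjusted p = 0.091), Eif1 (-0.18 ± 0.06 (SE), 0.11) and Eif3g (0.40 ± 0.15 (SE), 0.14). The groups did not overlap for 2 members higher and 1 lower in KO, against 5.09% and 5.11% of all genes. Eif5b passed without WT PN3 replicate 2 (adjusted p = 0.049). With a term for the replicate number, a pairing that the labels do not state, Eif5b, Eif1 and Eif3g were called (8.97% of all genes).

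At early 2-cell no member was called between KO and WT with limma, against 0.00828% of all genes (Smarca4 alone), and 2 of 49 members had an unadjusted p under 0.05, against 5.98% of all genes. The groups did not overlap for 2 members higher and 1 lower in KO, against 5.36% and 4.38% of all genes. The fit of the E2C groups alone called 0 members as well. The smallest p-values belonged to Eif3e (1.03 ± 0.40 (SE), adjusted p = 0.78), Eif5a2 (0.72 ± 0.34 (SE), 0.82) and Eif5a (-0.39 ± 0.19 (SE), 0.85). Eif4g1, higher in KO at both earlier stages, stood at 36.5, 28.03 and 22.1 in WT and 43.6, 42.3 and 28.9 in KO, and the groups overlapped (0.40 ± 0.28 (SE), adjusted p = 0.94). In simulated data with this stage's spread, 25.1% of genes changed 2-fold were recovered, so a 2-fold difference would mostly have gone unseen.

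At late 2-cell no member was called between KO and WT with limma (0.77% of all genes). Yet 41 of 49 differences were negative, against 6521 of 12079 over all genes, and the medians were -0.35 and -0.05. The members were measured in the same libraries, so these signs are not independent of each other. At an unadjusted p under 0.05 stood 19 of 49 members, against 17.7% of all genes. The fit of the L2C groups alone called 0 members (0% of all genes), while 1 spread for all stages called 12 (15.5% of all genes) and a weight for each library 25 (30.6%). In simulated data for this comparison, 61.3% of the calls made with 1 spread were false, against 32.7% with the main fit. The fit with a weight for each library was not simulated. Eif3c stood at 269, 211 and 131 in WT and 133, 96.5 and 94.8 in KO (-0.87 ± 0.21 (SE), adjusted p = 0.054). Eif3a stood at 235, 184 and 110.5 in WT and 105, 84.1 and 86.6 in KO (-0.87 ± 0.24 (SE), adjusted p = 0.069). Eif4g1 stood at 193, 194 and 98.3 in WT and 129, 81.3 and 69.4 in KO (-0.77 ± 0.26 (SE), adjusted p = 0.12). In each of these genes the first and second WT libraries were high, and the third WT library lay near the KO libraries. The groups did not overlap for 2 members higher and 10 lower in KO, against 8.76% and 11.4% of all genes.

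The third WT L2C library stood with the KO libraries over the members as a whole. The median difference of a WT library from the KO mean was 0.73 for replicate 1, 0.48 for replicate 2 and 0.09 for replicate 3. Replicate 1 lay above all 3 KO libraries for 38 of 49 members, replicate 2 for 33 and replicate 3 for 15, while 29 members of replicate 3 lay within the KO range. Markers of the 2-cell stage moved with this: Zscan4d, a gene expressed at the 2-cell stage, stood at 4.32, 4.73 and 33.4 in WT and 14.7, 22.2 and 23.3 in KO. The sum of 6 such markers was 56.4 to 245 in WT and 197 to 229 in KO. The part of embryo timing in the members' values was not tested.

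Without the third WT L2C library, 21 members were called between KO and WT at late 2-cell, 2 higher and 19 lower, against 21.4% of all genes. The median was then -0.55 against -0.06 for all genes. Eif3c (-1.15 ± 0.18 (SE), adjusted p = 0.00012), Eif3a (-1.18 ± 0.20 (SE), 0.00028), Eif2s3x (-1.17 ± 0.22 (SE), 0.00081) and Eif4g1 (-1.10 ± 0.22 (SE), 0.0015) were lower in KO by this measure. The 2 higher genes were Eif1b (0.50 ± 0.16 (SE), 0.028) and Eif4e3 (0.68 ± 0.20 (SE), 0.02). The difference between the WT and KO steps from early to late 2-cell then called 10 members, all smaller in KO, against 6.95% of all genes. They included Eif3e (-2.21 ± 0.50 (SE), adjusted p = 0.011), Eif4g1 (-1.50 ± 0.34 (SE), 0.011) and Eif3c (-1.16 ± 0.27 (SE), 0.013). With all 3 WT libraries kept, the same fit made none of these calls. The third WT library was singled out by these same member values. Leaving out the WT library nearest to KO widens the gap between the groups, so the calls made without it are no separate support.

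**Figure D5:**
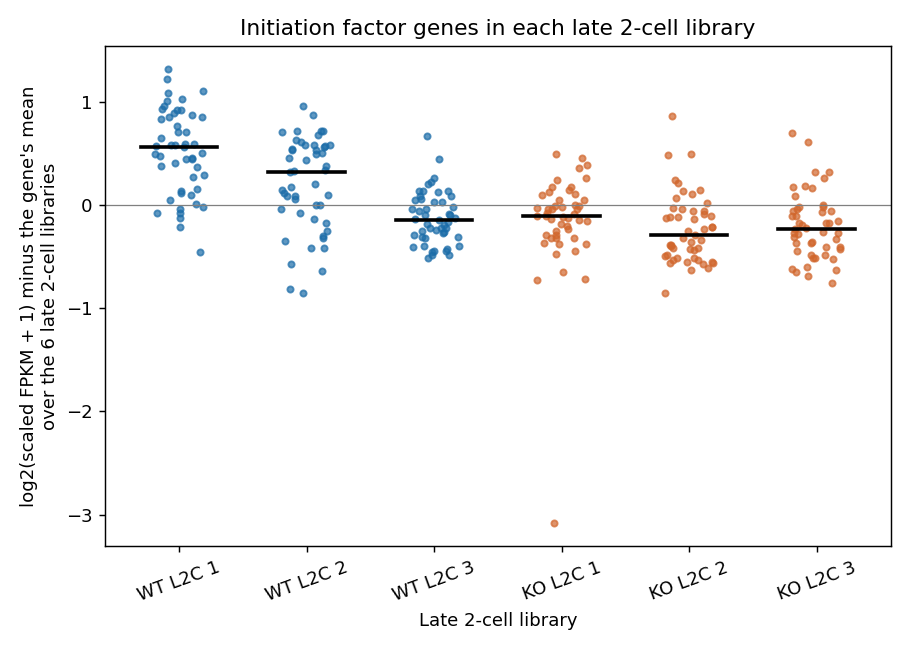
Each point is 1 of 49 genes in 1 late 2-cell library, as its log2(scaled FPKM + 1) minus the gene's mean over the 6 libraries, WT in blue and KO in orange, with a bar at each library's median. The medians are 0.56 and 0.32 in WT libraries 1 and 2, and between -0.11 and -0.29 in WT library 3 and the KO libraries; the lowest point is Eif3j1 in KO library 1.

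Other translation genes were counted for the same step, from early to late 2-cell in WT, in which 34.1% of all genes were called higher and 18.3% lower. Of 6 genes for kinases and phosphatase subunits acting on eIF2alpha, 5 were tested, 4 rose and 1 fell: Ppp1r15b (3.74), a constitutive phosphatase subunit, Eif2ak3 (3.29), the kinase PERK, Ppp1r15a (2.11) and Eif2ak1 (0.64) rose, and Eif2ak4 (-1.44), the kinase GCN2, fell. At MII, Ppp1r15a was higher (0.27) and Eif2ak3 lower (-0.28) in KO. At PN3, Ppp1r15a was higher in KO (0.31).

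Of 8 elongation factor genes tested, 3 rose and 5 fell in WT, with a median of -0.82 against 0.25 for all genes. The rises were Eef1g (2.45), Eef2 (1.41) and Eef1d (1.36), and Eef2k, the kinase of eEF2, fell most (-2.29). Of 7 termination and recycling genes, 3 rose, led by the recycling ATPase Abce1 (2.28), and 2 fell. Of 9 poly(A)-binding genes and partners, Pabpc1 (4.94), Larp1 (3.88) and Larp4 rose (1.73), while Pabpc1l, the form stored in oocytes, fell (-3.03) together with 2 others. Of 14 initiation helpers and mTOR inputs, 8 rose and 1 fell, the rises led by Mcts2 (2.77), Bzw2 (2.63), Mknk2 (2.62) and Bzw1 (2.55). In KO oocytes at MII, the calls in these lists were Pabpc1 (-0.68), Bzw1 (-0.52), Mtor (0.36), Eef2k (0.25) and Gspt2 (-0.25). At PN3 they were Ddx3x (-0.24) and Pabpc4 (0.23). No gene of these 5 lists was called between KO and WT at either 2-cell stage. Eif4e1b, the oocyte eIF4E form left out of the 50, stood at 341 in WT MII oocytes and 143 in WT L2C, while Eif4e went from 47.7 to 95.3.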

How the data were processed

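The authors deposited 1 FPKM value (fragments per kilobase and per sequencing depth) for each gene symbol in each library. Trim Galore 0.4.5, HISAT2, StringTie, HTSeq and the builds mm10 and GRCm38 appear in the submitters' processing notes without role or order, and the tool that made the FPKM is not stated. A scaling factor per library was the median, over 6492 genes that reach an FPKM of 1 in every library, of the ratio to that gene's geometric mean. Scaled values were taken as log2(value + 1). The 12079 genes that reach an FPKM of 1 in 3 or more libraries were fitted with limma 3.58.1 (R 4.3.3), with 1 mean per stage and genotype (17 residual degrees of freedom), 1 weight per stage, and a trended, robust prior. P-values were adjusted by Benjamini-Hochberg over all genes and called under 0.05. Interaction terms tested differences between steps. The members and lists were chosen with earlier results of these data known. Named genes are all called members up to 12, beyond that the 10 largest differences and 1 per role, and the 3 lowest p-values where fewer than 3 were called.

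The fit was tested on simulated data with 200 of 12079 genes changed 2-fold. Between KO and WT, in order of stage, 24.2%, 16.6%, 29.5% and 32.7% of calls were false, and 99.6%, 98.8%, 25.1% and 37.4% of changed genes were recovered. With the compared groups fitted alone, false calls were 3.74%, 5.96%, 11.4% and 7.95%, and 97.8%, 97.8%, 3.9% and 8.1% were recovered. With 1 spread for all libraries, false calls were 0.32%, 0.673%, 73.3% and 61.3%, and 62.3%, 88.6%, 77% and 75% were recovered. For the step from early to late 2-cell in WT, 15.2% of the main fit's calls were false and 32.3% of changed genes were recovered. Fitted alone, that step gave 11.6% and 8.4%. Gene positions and exon overlaps come from GENCODE vM21. Figures were drawn with matplotlib 3.10.9, and permutation tests used SciPy 1.17.1.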

Additional observations from a re-analysis of the deposited data

Results flagged for a closer look

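In WT PN3 zygotes, Eif4e2 stood at 7.31 scaled FPKM in replicate 2, apart from 9.46 to 9.80 in the other 3 libraries. In KO PN3 zygotes, Eif2b3 stood at 17.6 in replicate 4, apart from 21.3 to 21.5 in the others. These were 2 of 90 combinations of gene and PN3 group looked at, and chance sets about 1 in 20 groups apart in this way. The other stages have fewer than 4 libraries per group and were not looked at for this.

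The step from MII to PN3 was called different between KO and WT for Eif3i (-0.31 ± 0.08, SE), Eif3l (0.61 ± 0.15) and Eif5b (0.37 ± 0.10). Limma's interaction term gave adjusted p-values of 0.032, 0.034 and 0.039, and it called 2.29% of all genes. All 3 calls were lost with the groups fitted alone (0.116% of all genes called) and with 1 shared spread (0%). They were also lost in several runs that left out 1 library, such as WT MII replicate 2.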

How the results depend on the processing

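No called gene reversed its direction under any alternative run. Members called at MII between KO and WT numbered 5, and 0 with 1 shared spread (0.00828% of all genes), 2 with the groups fitted alone (3.51%) and 3 with the replicate block (7.28%). At PN3 they numbered 2, and 1 with a pseudocount of 0.1, without a filter and fitted alone, 0 with 1 shared spread (0.0828% of all genes), 4 with a weight for each library (5.51%) and 5 with the block (8.97%). At L2C they numbered 0, and 1 on FPKM as deposited, on TPM, with a pseudocount of 0.1 and with the filter at 10 libraries, 2 with the block (1.26% of all genes), 12 with 1 shared spread (15.5%) and 25 with a weight for each library (30.6%). With 1 shared spread, 9 were called from MII to PN3 in WT (11.1% of all genes) and 7 in KO (5.93%), and 13 in KO fitted alone (25.2%). The PN3 minus MII interaction called 0 with 1 shared spread and fitted alone, and 1 without a filter. On FPKM as deposited its 3 calls were 3 higher and 0 lower, against 2 and 1, and on TPM 1 and 1. The L2C minus E2C interaction called 6 with 1 shared spread (6.38% of all genes) and 12 with a weight for each library (11.4%). Alternatives chosen after seeing the data gave 12 for the E2C step in KO without both E2C libraries numbered 3. Without WT E2C replicate 2 and WT L2C replicate 3 they gave 21 at L2C and 10 for its interaction. Counts and splits that carry no percentage here stand without the share of all genes. They show only how the member calls moved.

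Leaving out each replicate gave 3 to 8 at MII, 1 to 2 at PN3, 0 to 0 at E2C and 0 to 21 at L2C. It gave 28 to 34, 16 to 21 and 35 to 38 for the WT steps in order, 19 to 24, 11 to 20 and 22 to 27 for the KO steps, and 0 to 3, 0 to 0 and 0 to 10 for the interactions. These ranges stand without the share of all genes and show only how far the member counts moved. The deviations of same-numbered WT and KO libraries correlated with r between -0.12 and 0.045 at MII, 0.013 and 0.428 at PN3 (above 0.1 in 3 of 4 pairs), 0.067 and 0.161 at E2C, and -0.184 and 0.215 at L2C. Libraries correlated best with their own number in 1 of 4 cases at MII, 5 of 8 at PN3, 6 of 6 at E2C and 2 of 6 at L2C, a hint from the data only. The labels do not say that a number marks a shared source and at no stage was every pair above 0.1, so the pairing was not taken as given. The gene results followed through the alternatives were every called member, named above or not, and the 3 lowest p-values where fewer than 3 were called. Of these 187 gene results, 175 kept their side of the threshold with the replicate block, 7 lost a call and 5 gained one (Eif5b, Eif1 and Eif3g at PN3, Eif3c and Eif4g1 at L2C). The cause of these changes was not tested. Depth is unknown, which leaves counting error unmeasured.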
